A study of Mus musculus with 6 samples.

Results

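CpG methylation was examined at 8 genes of the stress axis, the corticosteroid receptors Nr3c1 and Nr3c2, the receptor co-chaperone Fkbp5, the peptide genes Crh, Avp and Pomc, and the CRH receptors Crhr1 and Crhr2. The genes were chosen by name, and a cytosine belonged to a gene when it lay between 1 kb upstream of the gene start and the gene end (GENCODE M21, mm10). Of 890041 cytosines with a value, 600 met this rule, at 496 CpGs. Genes with at least 1 such cytosine numbered 25544 in all. DNA came from micro-dissected dentate gyrus, the hippocampal subregion where new neurons are added in adult life, of female C57BL/6JRj mice aged 4.5 months. The labels name no transgene and no drug. The mice had lived in standard housing (STD, 3 mice) or in environmental enrichment (ENR, 3 mice), a large enclosure with tunnels and toys shared by a group of mice, from a young age until sampling. Per the methods the ENR mice of an experiment shared an enclosure, so that the effect of housing and of that enclosure cannot be told apart. Methylation was read by reduced representation bisulfite sequencing (RRBS), which cuts DNA at CCGG and so covers mainly CpG-rich sequence, and each value is the percent of reads with a methylated cytosine at a site in a mouse.

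The stress axis runs from the hypothalamus to the pituitary and the adrenal cortex. Crh and Avp encode hypothalamic peptides that drive the pituitary, and Pomc encodes the precursor from which the pituitary cuts corticotropin, the signal for corticosteroid release. Corticosteroids act back on the brain through the glucocorticoid receptor (Nr3c1) and the mineralocorticoid receptor (Nr3c2), both abundant in the hippocampus, and Fkbp5 lowers the hormone affinity of the glucocorticoid receptor and is itself a glucocorticoid target. Methylated CpGs at promoters usually go with low transcription, and CpG islands at promoters are mostly free of methylation. RNA was not measured in these libraries, so no level below speaks of expression.

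None of the 8 genes passed the test between ENR and STD mice. In limma, fitted over the mean methylation of every gene with at least 3 sites, 0 of 8 genes and 0 of 22934 genes passed an adjusted p-value of 0.05 (0% in all), and 0 of 8 reached an unadjusted p-value under 0.05, against 3.86% of all genes. Groups overlapped at all 8 genes, while 8.47% of all genes showed no overlap (5.43% lower and 3.04% higher in ENR). With the strands of each CpG averaged first, the groups did not overlap at 2 of the 8 genes, against 8.37% of all genes (2.9% higher in ENR). These were Crhr1 (difference 1.18) and Crhr2 (1.05), both higher in ENR at an exact permutation p of 0.1. The mean was lower in ENR at 3 of 8 genes (Nr3c2, Fkbp5 and Crh), against 57.6% of all genes. Differences ran from -0.674 percentage points at Nr3c2 to 3.64 at Avp, with a median of 0.173 over the 8 genes and -0.194 over all genes. Their median size without sign was 0.624 percentage points, against 0.808 over all genes. Differences are given as ENR minus STD throughout. Single genes were also compared by two-sided exact permutation tests over the 20 splits of the 6 mice, which cannot give a p-value under 0.1. A shift of methylation within cells and a shift in the mix of cell types of the tissue cannot be told apart in such bulk DNA.

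Libraries also differed within groups. Over all sites, mean methylation was between 22.5% and 24.3% in STD and between 21.3% and 24.2% in ENR, and replicate 3 was the lowest in each group. At the 48 cytosines of the 8 genes with an overall mean between 20% and 80%, the means were 45.7%, 39.8% and 42.4% in STD and 44.6%, 47.2% and 34.5% in ENR, replicates being listed from 1 to 3 here and below. ENR replicate 3 was the lowest library there as well, and its part in the single results was examined by leaving it out. Pairs of libraries correlated with r between 0.900 and 0.951 across sites, so no library was a copy of another. Of the promoters of marker genes, those of the granule neuron gene Prox1 (38 sites) were between 1.63% and 2.89% and those of the astrocyte gene Gfap (7 sites) between 21.4% and 51.3%. Promoter methylation does not identify cell types, and RNA or protein markers were not measured.

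**Figure D1:**
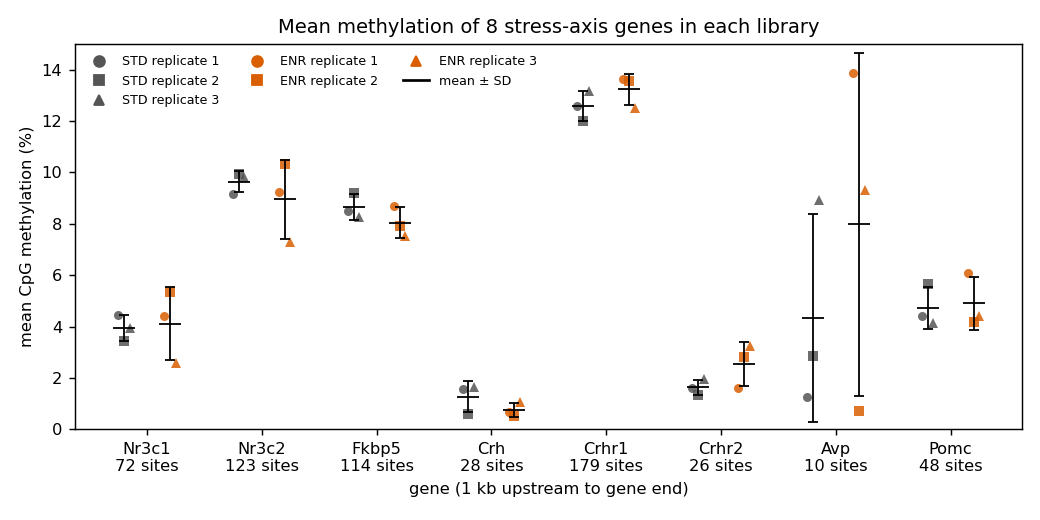
Mean CpG methylation (%) of each of the 8 genes in every mouse, with replicates as symbols, STD in grey and ENR in orange, and horizontal lines and bars for the group mean ± SD. Groups overlapped at all genes, and Crhr1 had the highest mean, at 12.0% to 13.6% while Avp spread from 0.713% to 13.9%.

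Ordered by their mean over the 6 mice, the genes ran from Crh (1.01%) through Crhr2 (2.09%), Nr3c1 (4.03%), Pomc (4.81%), Avp (6.15%), Fkbp5 (8.35%) and Nr3c2 (9.29%) to Crhr1 (12.9%). The median over all genes was 11.1%, and of the 8 genes only Crhr1 lay above it. Crhr2 and Nr3c1, Nr3c1 and Pomc, and Fkbp5 and Nr3c2 changed places between mice, and so are not ordered beyond their spread. Crh lay below Crhr2 and Crhr1 above Nr3c2 in all 6 mice, although the ranges of Crh and Crhr2 over the mice overlapped. The range of Avp overlapped that of every other gene. The genes were covered at different positions, and whether that set their order was not tested. Of the 600 cytosines, 236 (39.3%) were at 0% in every mouse, against 29.8% of all sites. Promoter cytosines, within 1 kb of a transcript start, numbered 424 and averaged between 2.51% and 3.36% in single mice. The 72 exonic cytosines outside promoters averaged between 7.90% and 10.1%, and the intronic ones between 27.0% and 31.9%.

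**Figure D2:**
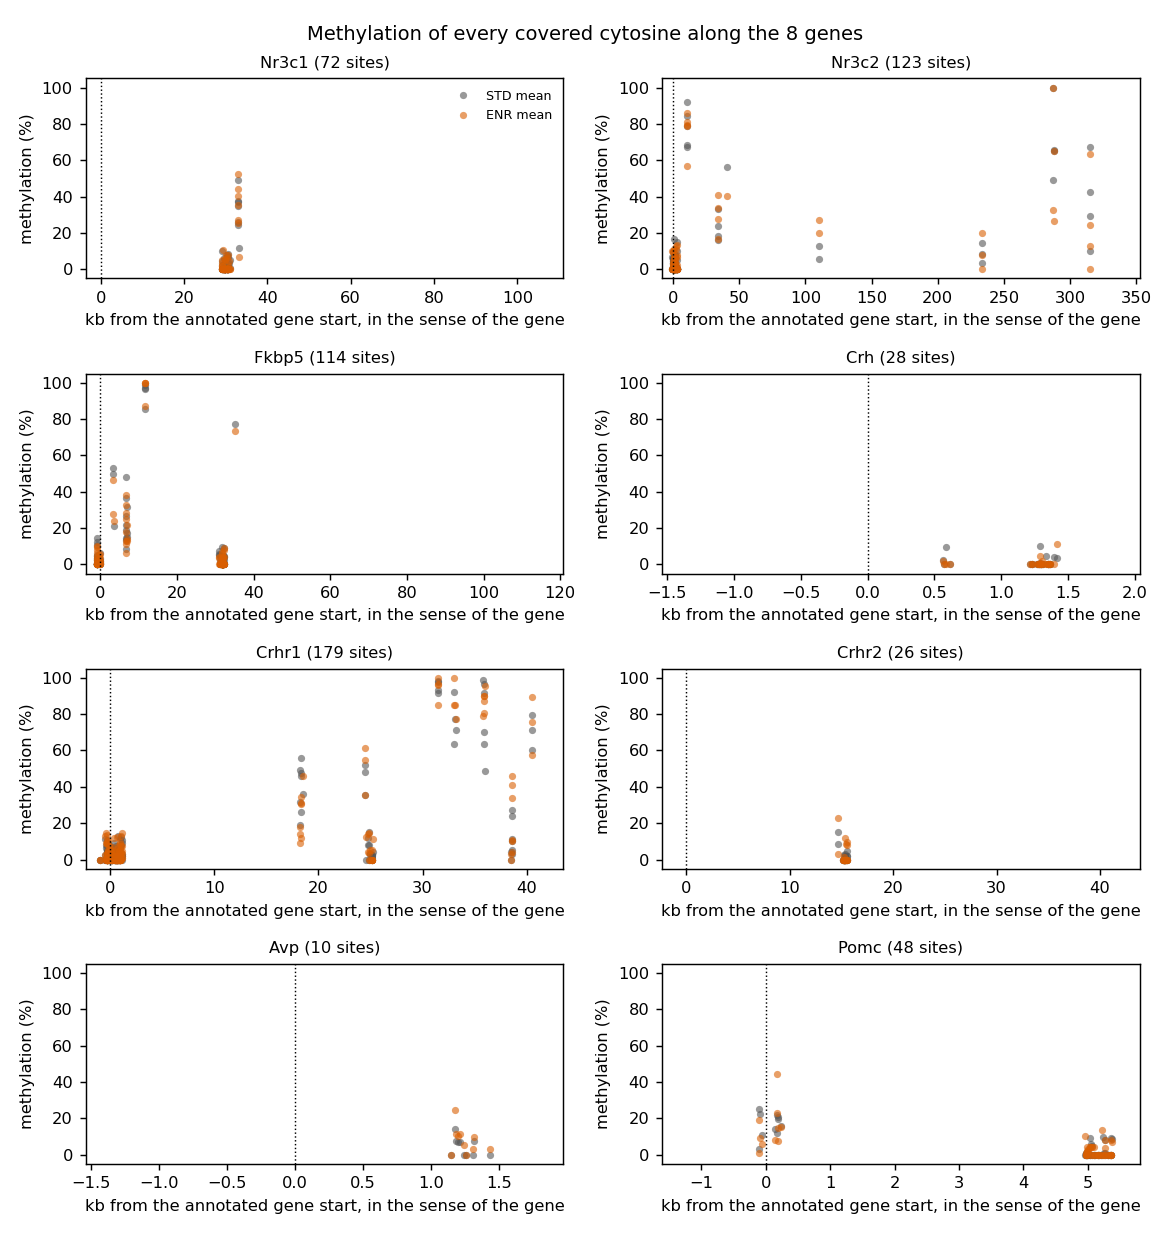
Group mean methylation (%) of every covered cytosine along each gene, plotted against the distance in kb from the annotated gene start (dotted line) in the sense of the gene, STD in grey and ENR in orange. Values near 0% filled the promoter clusters, and values over 60% stood in the gene bodies of Nr3c2, Fkbp5 and Crhr1.

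Nr3c1 (ENSMUSG00000024431.15, chromosome 18, 39410545 to 39519421, minus strand) encodes the glucocorticoid receptor, whose promoter in the hippocampus is among the most studied loci for effects of early experience on methylation. All 72 of its cytosines lay within 1 kb of a transcript start, between 29058 and 33136 bp downstream of the annotated gene start, where several alternative first exons lie. The gene mean was 4.45%, 3.42% and 3.96% in STD and 4.398%, 5.36% and 2.59% in ENR. The ENR mice thus held both the highest and the lowest value, and their means were 0.171 percentage points apart, less than the SD of either group (exact permutation p = 0.9, limma adjusted p = 1.00). Without STD replicate 2 it became -0.0899 and without ENR replicate 2 -0.452. At 43 of the 72 cytosines every mouse was at 0%. Intermediate methylation was seen in the 7 cytosines of the tile from 39486001 to 39487000, at 36.3%, 30.7% and 27.6% in STD and 33.0%, 49.5% and 16.98% in ENR. There the ENR mice lay on both sides of all STD mice. The 65 other cytosines lay in the tiles from 39488001 to 39491000, whose group means were between 0.487% and 1.99%. The cytosine with the lowest p-value in the gene, at 39490140 on the plus strand, was at 0% in all STD mice and at 19.0%, 12.5% and 0% in ENR (difference 10.5, limma adjusted p = 0.852). Its 6 neighbours within 100 bp differed by -0.163 on average.

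Nr3c2 (ENSMUSG00000031618.13, chromosome 8, 76899442 to 77245012, plus strand) encodes the mineralocorticoid receptor, which binds corticosterone with high affinity and is strongly expressed in the hippocampus. Its mean over 123 cytosines was 9.17%, 9.92% and 9.80% in STD and 9.24%, 10.3% and 7.30% in ENR. The difference of -0.674 (exact permutation p = 0.7) came with a low ENR replicate 3, and without that mouse it was 0.155. The 93 promoter cytosines were at 1.70% ± 0.659 (SD, n = 3) in STD against 1.67% ± 0.703 (SD, n = 3) in ENR. Of these, 5 in its RefSeq promoter of 300 bases averaged 3.04%, 5% and 0.952% in STD and 0% in every ENR mouse. They include 76902326 on the plus strand, picked out after its values were seen (difference -15.0). Of the sites, 64 lay also in Gm10649, a noncoding RNA gene on the opposite strand that shares the promoter region. The tile that holds the gene start, with 31 cytosines, was at 0.720%, 3.19% and 1.73% in STD and 1.84%, 1.22% and 0.371% in ENR. In contrast, 5 exonic cytosines between 10405 and 10554 bp downstream of the start were at 78.1% ± 8.21 (SD, n = 3) in STD against 76.4% ± 6.53 (SD, n = 3) in ENR. The 25 intronic cytosines were at 25.4% ± 1.71 (SD, n = 3) in STD against 22.6% ± 7.70 (SD, n = 3) in ENR (exact permutation p = 0.6).

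Far downstream in introns, 2 cytosines of Nr3c2 were lower in every ENR mouse than in every STD mouse. Their group means differed by over 25 percentage points. The sequences around them are shown because they hold the only sites of a corticosteroid receptor that differed so much. Here and below they are given on the plus strand of GRCm38 with every CpG that had a value in capitals.
Nr3c2 chr8:77186840-77186872: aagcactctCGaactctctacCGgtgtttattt
Nr3c2 chr8:77214667-77214752: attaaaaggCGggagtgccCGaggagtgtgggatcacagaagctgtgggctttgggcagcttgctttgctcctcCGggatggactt
In the first stretch, the cytosine at 77186862 on the minus strand was at 75%, 51.7% and 67.9% in STD and 29.2%, 25% and 26.2% in ENR. The groups did not overlap (difference -38.1, SE 13.9, limma unadjusted p = 0.0260, adjusted p = 0.852). The other CpG of the stretch, 12 bp away on the same strand at 77186850, was at 87.0%, 43.3% and 66.7% in STD and 62.0%, 66.7% and 65.9% in ENR, a difference of -0.839. In the second stretch, the cytosine at 77214687 on the minus strand was at 39.2%, 40.4% and 48.6% in STD and 26.8%, 10% and 2.04% in ENR (difference -29.8, SE 14.2, limma adjusted p = 0.852). Its 2 neighbours were also lower in ENR, with a mean difference of -6.92. The mean over the 3 CpGs of this stretch was 45.1%, 29.1% and 45.9% in STD and 29.3%, 27.8% and 19.3% in ENR, and so overlapped between groups.

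Fkbp5 (ENSMUSG00000024222.17, chromosome 17, 28399094 to 28517527, minus strand) encodes the immunophilin that holds the glucocorticoid receptor in a state of low hormone affinity. Its mean over 114 cytosines was 8.50%, 9.21% and 8.26% in STD and 8.71%, 7.90% and 7.52% in ENR, a difference of -0.610 (exact permutation p = 0.3, limma adjusted p = 1.00). ENR replicate 1 lay among the STD mice. Of 106 promoter cytosines, 65 lay near an internal start, in the tiles from 28485001 to 28487000. The larger tile, of 57, was at 0.909% ± 0.147 (SD, n = 3) in STD against 1.02% ± 0.108 (SD, n = 3) in ENR. The other, of 8, was at 3.04%, 7.80% and 0% in STD and 1.19%, 0% and 2.07% in ENR. The tile with the annotated gene start (9 cytosines) was at 1.72%, 2.24% and 1.28% in STD and 3.31%, 0.542% and 3.20% in ENR. A block of 11 cytosines near another internal start, in the tile from 28510001 to 28511000, carried intermediate methylation of 18.0%, 21.3% and 29.8% in STD and 25.04%, 15.4% and 20.02% in ENR. Within this block, 1 cytosine on the minus strand at 28510722 was lower in every ENR mouse (49.3%, 53.6% and 41.1% in STD, 34.4%, 29.6% and 33.9% in ENR). Another at 28510688 on the plus strand was higher in every ENR mouse (14.6%, 14.0% and 17.4% in STD, 25%, 21.1% and 19.0% in ENR). On the partner strands the difference was 1.91 at 28510721 and -18.5 at 28510689, each of the opposite sign. These 2 cytosines were picked out after their values were seen and lay 34 bp apart. The 4 intronic cytosines in the tile from 28505001 to 28506000 were at 94.5% ± 3.42 (SD, n = 3) in STD against 96.8% ± 3.51 (SD, n = 3) in ENR. No cytosine of Fkbp5 differed by over 25 percentage points. The lowest p-value was at 28485373 on the minus strand, with 12.2%, 15.6% and 0% in STD and 0% in all ENR mice (difference -9.26, limma adjusted p = 0.852).

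Crh (ENSMUSG00000049796.4, chromosome 3, 19693401 to 19695396, minus strand) encodes corticotropin-releasing hormone, which besides the hypothalamus is made by some hippocampal interneurons. Its 28 cytosines were the least methylated of the 8 genes, at 1.57%, 0.583% and 1.66% in STD and 0.664%, 0.509% and 1.07% in ENR (difference -0.527, exact permutation p = 0.3). At 19 of them every mouse was at 0%. The cytosine at 19694109 on the minus strand, in an exon, was at 10.5%, 9.59% and 10.8% in STD and 0%, 2.13% and 0% in ENR (difference -9.57, SE 2.83, limma unadjusted p = 0.00987, adjusted p = 0.852). The groups did not overlap at this cytosine. The paired cytosine of the same CpG on the plus strand differed by 4.90 in the other direction, from 0% in all STD mice to 0%, 0% and 14.7% in ENR. The 21 neighbours within 100 bp differed by 0.0570 on average.

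Avp (ENSMUSG00000037727.6, chromosome 2, 130580620 to 130582554, minus strand) encodes vasopressin, the partner of CRH in driving corticotropin release. Only 10 cytosines were covered, all between 1150 and 1438 bp downstream of the gene start, and none lay within 1 kb of the start. Their mean was 1.24%, 2.85% and 8.91% in STD and 13.9%, 0.713% and 9.33% in ENR. The lowest and the highest value were both in ENR mice, and the difference of 3.64 percentage points had an SE of 3.62 (exact permutation p = 0.6, limma adjusted p = 1.00). Without ENR replicate 1 it was 0.687, and without ENR replicate 2 it was 7.27. The spread sat in 4 minus-strand cytosines within an intron, between 130581340 and 130581377. There ENR replicate 1 was at 34.8%, 30.4%, 30.4% and 30.4% along the 4 sites and ENR replicate 2 at 0% in all of them. STD replicate 1 was also at 0% in all of them, and STD replicate 3 ran between 20% and 22.9%. Cytosines this close on the same strand can be read on the same molecules and do not count as separate measurements. The cytosine with the lowest p-value, exonic at 130581116, was at 0% in all STD mice and at 2.17%, 3.33% and 4.55% in ENR (difference 3.35, limma adjusted p = 0.852). Values so low can rest on single methylated reads, and the read numbers behind them are unknown.

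Pomc (ENSMUSG00000020660.6, chromosome 12, 3954951 to 3960642, plus strand) encodes proopiomelanocortin. It combined a partly methylated promoter with an exonic cluster near 0%. The gene mean over 48 cytosines was 4.41%, 5.65% and 4.12% in STD and 6.10%, 4.196% and 4.41% in ENR (difference 0.175, exact permutation p = 0.6). Without ENR replicate 1 the difference was -0.422 and without STD replicate 3 -0.125. The 10 promoter cytosines were at 16.5% ± 1.88 (SD, n = 3) in STD against 14.9% ± 2.97 (SD, n = 3) in ENR, a difference of -1.64 (exact permutation p = 0.6). Without ENR replicate 3 it was -0.133 and without ENR replicate 1 -3.10. The 38 exonic cytosines were at 1.62% ± 0.730 (SD, n = 3) and 2.28% ± 0.839 (SD, n = 3), a difference of 0.652 (exact permutation p = 0.4), which was 0.345 without STD replicate 1, 1.06 without STD replicate 2, 0.282 without ENR replicate 1 and 1.11 without ENR replicate 2. The RefSeq promoter window and the run of sites just after the gene start are shown because they hold the partly methylated CpGs.
Pomc promoter chr12:3954695-3954994: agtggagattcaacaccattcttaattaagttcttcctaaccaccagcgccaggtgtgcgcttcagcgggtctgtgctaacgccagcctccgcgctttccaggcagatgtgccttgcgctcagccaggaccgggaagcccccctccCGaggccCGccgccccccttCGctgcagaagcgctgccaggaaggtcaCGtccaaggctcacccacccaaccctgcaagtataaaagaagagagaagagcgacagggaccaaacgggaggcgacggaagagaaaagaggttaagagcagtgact
Pomc run chr12:3955086-3955196: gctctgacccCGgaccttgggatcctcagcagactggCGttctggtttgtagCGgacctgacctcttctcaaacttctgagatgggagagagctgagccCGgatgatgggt
In the promoter window, 4 of 18 CpGs had a value, and their mean was 15.6%, 16.6% and 13.8% in STD and 17.2%, 0% and 9.53% in ENR. This window held the 4 cytosines of the tile with the gene start, whose difference was -6.41 percentage points (limma adjusted p = 1.00), and ENR replicate 2 was at 0% in all 4. In the run after the start, 6 cytosines averaged 18.5%, 18.7% and 14.7% in STD and 18.2%, 24.9% and 13.4% in ENR. The cytosine at 3955123 on the plus strand in this run, 172 bp after the gene start, was at 22.1%, 0% and 13.3% in STD and 56.5%, 54.8% and 22.2% in ENR. ENR replicate 3 stood only just above the highest STD mouse (difference 32.7, SE 16.02, limma unadjusted p = 0.0761, adjusted p = 0.852). The paired cytosine of the same CpG on the minus strand, at 3955124, was at 14.3%, 26.7% and 24.0% in STD and 17.5%, 34.6% and 16.9% in ENR, a difference of 1.36. The 5 neighbours within 100 bp differed by -4.69 on average.

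In the exonic cluster of Pomc, the tile from 3959001 to 3960000 (14 cytosines) was at 1.05%, 0.730% and 1.04% in STD and 2.53%, 2.81% and 1.85% in ENR. The groups did not overlap (difference 1.46, limma unadjusted p = 0.0325, adjusted p = 1.00). The cytosine of this tile at 3959902, named after its values were seen, was at 0% in all STD mice and at 17.1%, 8.77% and 5.33% in ENR. The next tile, from 3960001 to 3961000 (24 cytosines), was at 2.02% ± 1.26 (SD, n = 3) in STD against 2.21% ± 1.48 (SD, n = 3) in ENR. It held the cytosine of the gene with the lowest p-value, at 3960185 on the plus strand, which went the other way, with 10.3%, 6.90% and 11.6% in STD and 0% in all ENR mice (difference -9.61, SE 2.71, limma unadjusted p = 0.00784, adjusted p = 0.852). Its 11 neighbours differed by 1.37 on average.

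Crhr2 (ENSMUSG00000003476.16, chromosome 6, 55090049 to 55133016, minus strand) encodes the receptor that prefers urocortins over CRH. Its 26 cytosines lay between 14635 and 15542 bp downstream of the annotated start, around internal transcript starts, and no cytosine at the annotated start had a value. The mean was 1.61%, 1.35% and 1.94% in STD and 1.595%, 2.82% and 3.23% in ENR. Both ENR replicates 2 and 3 were above all STD mice, and ENR replicate 1 was not (difference 0.915, exact permutation p = 0.3, limma adjusted p = 1.00). The tile from 55117001 to 55118000, with 24 of these cytosines, was at 0.854%, 0.451% and 1.02% in STD and 1.03%, 1.88% and 2.11% in ENR. The groups did not overlap, but the highest STD and the lowest ENR mouse lay close together (difference 0.901, limma unadjusted p = 0.141, adjusted p = 1.00). At 13 of the 26 cytosines every mouse was at 0%. The cytosine at 55117480, with 0% in all STD mice and 10.7%, 19.0% and 0% in ENR, had the lowest p-value (difference 9.92, limma adjusted p = 0.852).

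Crhr1 (ENSMUSG00000018634.10, chromosome 11, 104132855 to 104175523, plus strand) encodes the main CRH receptor of the forebrain. It had the most cytosines of the 8 genes (179) and held 7 of the 10 cytosines that differed by over 25 percentage points. Its mean was 12.6%, 12.0% and 13.2% in STD and 13.6%, 13.5% and 12.5% in ENR (difference 0.637, exact permutation p = 0.3, limma adjusted p = 1.00). ENR replicate 3 lay among the STD mice. The 113 promoter cytosines were at 2.08% ± 0.376 (SD, n = 3) in STD against 2.35% ± 0.587 (SD, n = 3) in ENR, and the 64 intronic ones at 29.2% ± 0.860 (SD, n = 3) in STD against 30.5% ± 1.31 (SD, n = 3) in ENR (exact permutation p = 0.2 for the introns and 0.6 for the promoter). The promoter is shown as the best covered start of the 8 genes.
Crhr1 promoter chr11:104132531-104132830: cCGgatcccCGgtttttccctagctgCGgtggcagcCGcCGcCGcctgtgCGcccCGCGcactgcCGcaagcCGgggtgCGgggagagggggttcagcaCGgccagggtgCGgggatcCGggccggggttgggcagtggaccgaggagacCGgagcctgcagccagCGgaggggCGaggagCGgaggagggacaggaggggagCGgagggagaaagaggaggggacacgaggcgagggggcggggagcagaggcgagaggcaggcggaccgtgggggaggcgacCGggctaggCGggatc
Of its 31 CpGs, 22 had a value on at least 1 strand, and the mean over 32 cytosines was between 1.89% and 4.46% in single mice, with all ENR mice inside the range of the STD mice. The tile with the gene start (50 cytosines) was at 2.60% ± 0.840 (SD, n = 3) in STD against 3.15% ± 0.188 (SD, n = 3) in ENR (limma adjusted p = 1.00).

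The larger differences in Crhr1 lay in introns, in 3 runs of cytosines, which are shown because the signs of the differences changed along them.
Crhr1 run 1 chr11:104151122-104151215: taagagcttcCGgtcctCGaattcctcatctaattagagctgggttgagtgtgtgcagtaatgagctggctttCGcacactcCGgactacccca
Crhr1 run 2 chr11:104168687-104168858: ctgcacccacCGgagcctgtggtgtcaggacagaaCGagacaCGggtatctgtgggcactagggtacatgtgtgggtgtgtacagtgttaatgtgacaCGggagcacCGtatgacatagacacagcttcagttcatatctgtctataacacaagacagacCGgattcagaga
Crhr1 run 3 chr11:104171330-104171491: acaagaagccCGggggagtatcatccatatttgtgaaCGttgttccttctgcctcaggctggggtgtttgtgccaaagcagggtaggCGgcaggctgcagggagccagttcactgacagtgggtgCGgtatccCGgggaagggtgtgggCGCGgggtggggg
In run 1, 7 cytosines averaged 31.1%, 43.0% and 44.1% in STD and 35.7%, 20% and 7.94% in ENR. ENR replicate 1 was inside the range of the STD mice and the other ENR mice were below it. The cytosine at 104151132 on the plus strand was at 42.6%, 69.0% and 37.0% in STD and 36.7%, 0% and 4.76% in ENR (difference -35.7, SE 17.5, limma adjusted p = 0.852). The cytosine at 104151204 on the plus strand was at 40.7%, 25.7% and 75.8% in STD and 22.4%, 10% and 3.13% in ENR (difference -35.6, SE 17.5, limma adjusted p = 0.852). At both, 5 of 6 neighbours within 100 bp shared the direction, with mean differences of -15.3 at each. The minus-strand cytosine of the CpG at 104151204 differed by 7.96 the other way. The tile with run 1 and 1 further cytosine had the lowest difference of the 37 tiles, -14.7 percentage points (limma unadjusted p = 0.155, adjusted p = 1.00).

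Run 2 held the cytosine with the lowest p-value of all 363 that varied in the 8 genes. At 104168848 on the minus strand, methylation was 47.2%, 56.0% and 43.5% in STD and 87.1%, 100% and 100% in ENR. The gap between the groups was wider than the range in either of them (difference 46.8, SE 8.40, limma unadjusted p = 0.000566, adjusted p = 0.852). Its 2 neighbours within 100 bp, also on the minus strand, were higher in ENR by 22.9 on average. They include the cytosine at 104168786, at 43.2%, 52.0% and 95.7% in STD and 78.8%, 91.3% and 100% in ENR (difference 26.4), where the groups overlapped through STD replicate 3. The other 3 cytosines of the run, all on the plus strand, were lower in ENR, and 1 of them, at 104168697, without overlap (95.6%, 100% and 100% in STD, 85.5%, 85.5% and 66.7% in ENR). Over the whole run the mean was 67.5%, 78.3% and 89.2% in STD and 83.0%, 87.2% and 91.1% in ENR, so that the groups overlapped. No CpG of this run had a value on both strands.

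In run 3, 3 plus-strand cytosines within 18 bp were higher in every ENR mouse than in every STD mouse. The cytosine at 104171463 was at 13.9%, 4.76% and 12.8% in STD and 19.2%, 72.7% and 31.9% in ENR (difference 30.8, SE 17.1). The cytosine at 104171479 was at 0%, 8.82% and 0% in STD and 23.4%, 42.1% and 36.6% in ENR (difference 31.1, SE 10.3, limma unadjusted p = 0.0171). The cytosine at 104171481 was at 0%, 9.76% and 25% in STD and 37.3%, 71.4% and 29.5% in ENR (difference 34.5, SE 16.9). ENR replicate 2 was the highest mouse at all 3, and the limma adjusted p-value was 0.852 at each. The minus-strand cytosine at 104171464, the partner of 104171463, was at 52.5%, 18.0% and 12.1% in STD and 23.3%, 2.90% and 4.11% in ENR, a difference of -17.5. Over the 8 cytosines of the run the mean was 15.6%, 6.88% and 9.96% in STD and 16.6%, 25.1% and 14.3% in ENR, with ENR replicate 3 below STD replicate 1 (difference 7.87, limma unadjusted p = 0.085, adjusted p = 1.00).

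**Figure D3:**
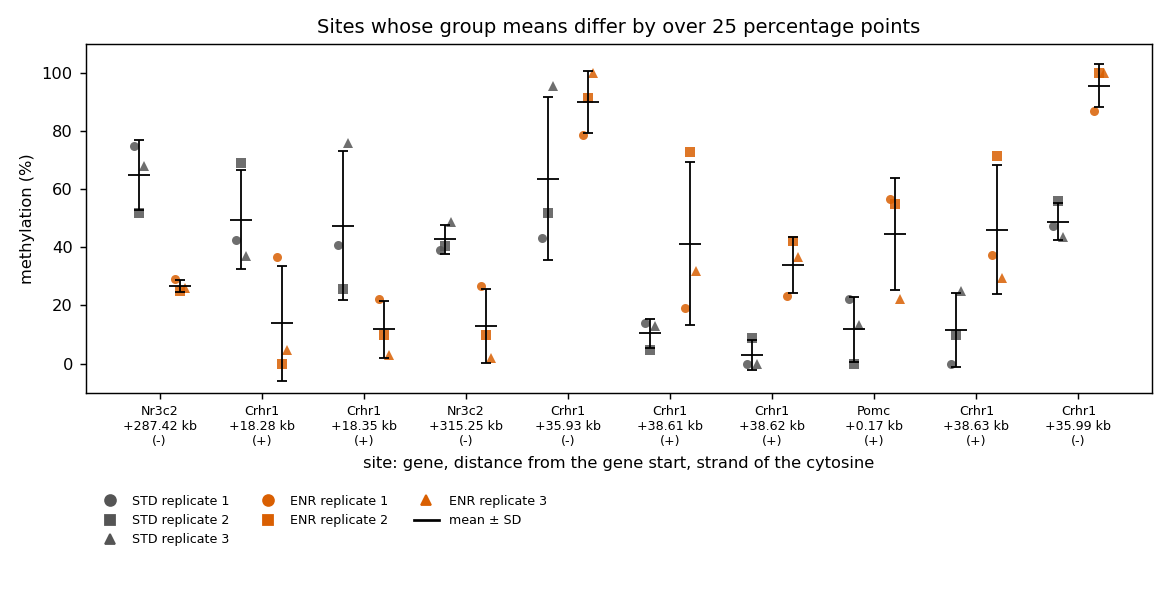
Methylation (%) in every mouse at the 10 cytosines of the 8 genes whose group means differed by over 25 percentage points, ordered from lower to higher in ENR and labelled with the gene, the distance from the gene start and the strand, with lines and bars for the group mean ± SD. Groups overlapped at 1 of the 10, in Crhr1, and the widest gap was at its cytosine of 46.8 points.

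Over the 8 genes together, 10 of 600 cytosines (1.67%) differed by over 25 percentage points, a share near the 1.94% of all sites. Of these, 4 were lower in ENR (0.667%, against 1.23% of all sites) and 6 higher (1%, against 0.706%). At 9 of the 10 the groups also did not overlap (1.5%, against 0.81% of all sites). Groups did not overlap at 22 cytosines (3.67%), against 3.99% of all sites, and 13 of them were lower in ENR (2.17%, against 2.34%) and 9 higher (1.5%, against 1.65%). After quantile normalization over all sites they did not overlap at 61 (10.2%), against 7.34% of all sites. Cytosines with an overall mean between 20% and 80%, where such differences are possible in both directions, numbered 48, and 9 of them (18.8%) differed by over 25 percentage points, against 11% of all such sites. Of these 9, 6 lay in the 3 runs of Crhr1, whose neighbouring cytosines are not separate measurements. In limma 0 of 363 varying cytosines passed, as did 0 of 615152 in the whole table (0%), and 10 (2.75%) had an unadjusted p-value under 0.05, against 2.68% of all sites. The smallest adjusted p-value was 0.852, in the 8 genes as in the whole table. Of 37 tiles of 1 kb with at least 3 cytosines, 0 passed in limma, as in the whole table (0%). Tile differences ran from -14.7 to 8.79 percentage points and none exceeded 25 (0.461% in all), groups did not overlap at 2 tiles (5.41%, against 8.88%), and 1 tile (2.7%, against 3.98%) had an unadjusted p-value under 0.05. The differences at single cytosines were thus not separable from the spread between mice in a test over the whole table.

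Both strands of a CpG are usually methylated alike, and 84 CpGs of the 8 genes had values on both strands and varied on at least 1 of them. The differences between ENR and STD had the same sign on both strands at 19 of the 84 CpGs and opposite signs at 28, and at 37 a strand showed no difference at all. The differences of the strands lay 3.70 percentage points apart in the median. For the larger differences named above in run 1 and run 3 of Crhr1, Pomc and Crh, a partner strand with a value had the opposite sign. The exception was Pomc, where the partner differed by 1.36. At 104151195 in run 1 of Crhr1, the difference was -15.1 on the plus strand and -20.0 with strands averaged. Both strands of that CpG were thus lower in ENR.

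**Figure D4:**
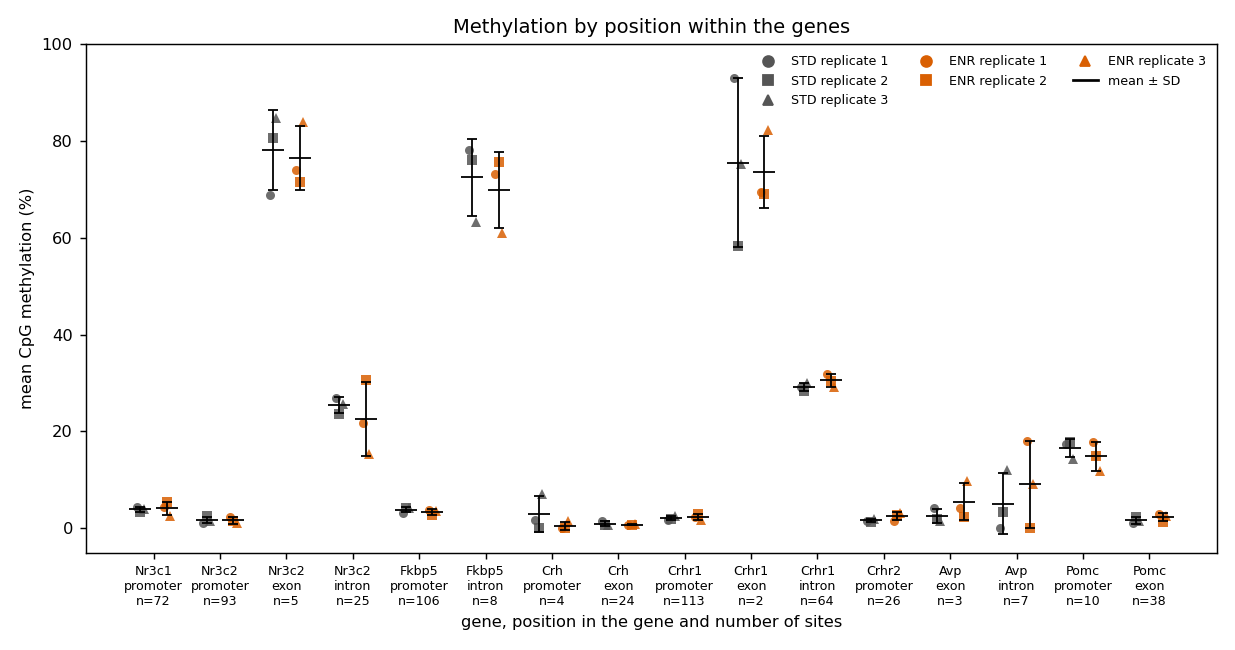
Mean methylation (%) of the promoter, exonic and intronic cytosines of each gene in every mouse, with the number of cytosines on the axis and lines and bars for the group mean ± SD (bars run below 0% where the SD exceeds the mean). Promoters lay below 6% in every gene but Crh in 1 mouse and Pomc, and groups overlapped at all 16 positions.

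Motifs were counted on both strands in the RefSeq promoter windows (GRCm38.p6, 300 bases) of the 6 genes with an entry, Nr3c2, Fkbp5, Crhr1, Crhr2, Avp and Pomc. The windows of Crhr2 and Avp held no cytosine with a value. A GC box, GGGCGG, the site read by Sp1, occurred 3 times in Nr3c2, 4 times in Fkbp5, and 1 time each in Crhr1 and Pomc, and 35.7% of 32851 promoters held at least 1. The cAMP response element TGACGTCA (1.79% of promoters) had no match in these 6 windows. The palindromic glucocorticoid response element had no match in the 6 windows either, and 0.00913% of promoters held 1. The cut site CCGG, whose matches can overlap the GC-rich motifs, occurred 7 times in Crhr1, 5 in Nr3c2, 4 in Fkbp5, 1 time each in Avp and Pomc and 0 times in Crhr2, and 52.8% of promoters held it. The windows held 32 CpGs in Fkbp5, 31 in Crhr1, 18 in Pomc, 17 in Nr3c2, 8 in Avp and 5 in Crhr2, against a median of 7.

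The other genes of the axis were read from a list of 38, of which 33 had at least 3 cytosines (Hsd11b1, Cyp11b1, Ucn2, Serpina6 and Mc2r did not). In limma 0 of the 33 passed (0% in all), and 2 had an unadjusted p-value under 0.05, against 3.86% of all genes. Groups did not overlap at 2 (6.06%, against 8.47% of all genes). Lower means in ENR were seen at 22 genes, against 57.6% of all genes, and higher means at 11. The median difference was -0.442 percentage points, against -0.194 over all genes. Without ENR replicate 3 the median was 0.256, with 14 of 33 lower, against 44.6% of all genes. Without STD replicate 2 it was -0.0227, with 17 lower, against 53.2% of all genes. Avpr1b, the vasopressin receptor of the pituitary corticotrophs, had the largest difference in either direction. Its 3 cytosines lay within 22 bp and averaged 21.6%, 33.3% and 40% in STD and 14.4%, 7.53% and 5.13% in ENR (difference -22.6, limma unadjusted p = 0.00344, adjusted p = 1.00). Per1, a clock gene that glucocorticoids induce, was at 4.85%, 8.36% and 3.36% over 6 cytosines in STD and at 2.28%, 2.31% and 1.65% in ENR (difference -3.45, limma unadjusted p = 0.0307, adjusted p = 1.00). Every ENR mouse was below the STD range at both. The highest difference was at Mrap, the accessory protein of the corticotropin receptor, with 14 cytosines at 77.4% ± 4.41 (SD, n = 3) in STD against 80.8% ± 1.70 (SD, n = 3) in ENR (difference 3.42, exact permutation p = 0.2), but without STD replicate 3 the difference was 0.988 and without STD replicate 2 it was 5.29. At Per1 the difference without STD replicate 2 was -2.03.

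By group, 7 of 8 glucocorticoid response genes had a lower mean in ENR (median -0.561), Klf9 being the exception, and none passed the test. Without ENR replicate 3, whose mean over all sites was the lowest, 4 of 8 were lower (median 0.188), as were 44.6% of all genes. All 4 measured genes of corticosteroid metabolism were lower (median -2.16), from -0.115 at H6pd to -4.84 at Cyp11a1, again without a call, and 2 of 4 were lower without STD replicate 1. Of 6 receptor chaperones 4 were lower (median -0.246), and of 4 coregulators 2 (median -0.0427). Of 4 genes of the vasopressin and oxytocin system 2 were lower (median -0.176), and of 3 in the CRH family 2 (median -0.249), while 3 of 4 genes of POMC processing and its receptors were higher (median 1.43). Without ENR replicate 3, 0 of 3 in the CRH family and 1 of 4 coregulators were lower. Without STD replicate 3, 1 of 4 of the vasopressin and oxytocin system and 2 of 4 of POMC processing were lower, and without STD replicate 2, 1 of 3 in the CRH family. With all libraries, 57.6% of all genes had a lower mean in ENR. The share was 52.1% without STD replicate 1, 53.2% without STD replicate 2, 64.0% without STD replicate 3 and 44.6% without ENR replicate 3.

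**Figure D5:**
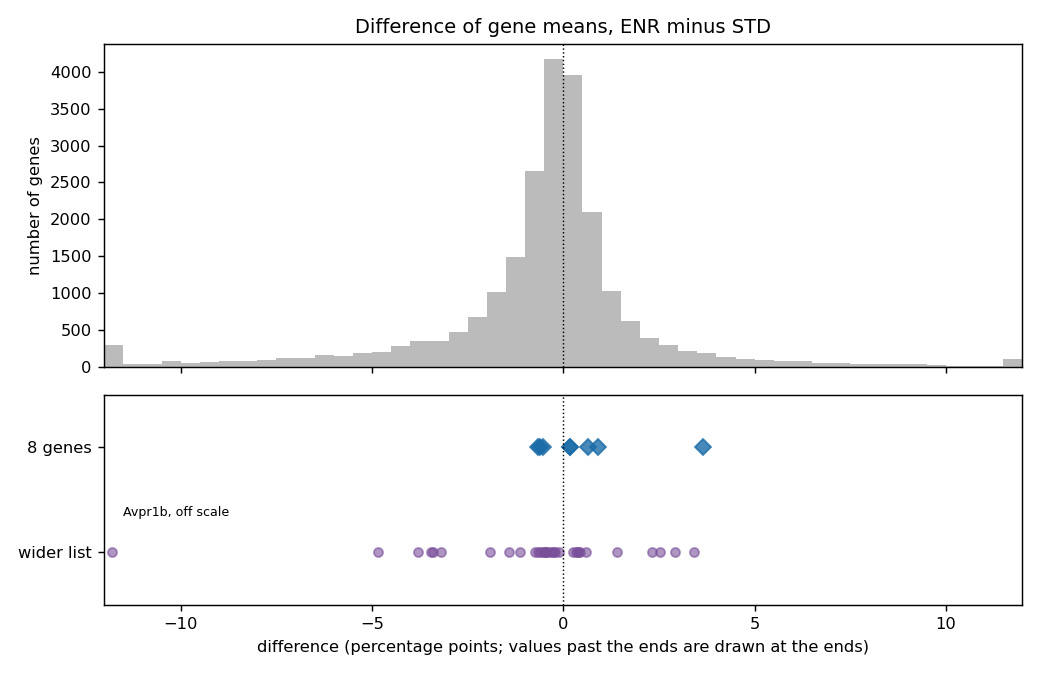
Difference of gene means (percentage points, ENR minus STD) as a histogram over all genes with at least 3 cytosines (upper panel) and for the 8 genes and the 33 genes of the wider list (lower panel, 1 point a gene). Except for Avp, which lay above the 95th percentile of all genes (3.39), the 8 genes lay within 1 point of 0, and Avpr1b at -22.6 lay off the scale.

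Genes with the most similar level across the 6 mice were sought among 17830 genes with at least 10 cytosines, by the smallest of the largest differences between mice. They were Oscp1 for Nr3c1 (largest difference 0.417 percentage points), Pus7 for Nr3c2 (0.744), Nrg2 for Fkbp5 (0.350), Isca1 for Crh (0.308), Pdia3 for Crhr1 (0.620), Bmt2 for Crhr2 (0.312), Gm11837 for Pomc (0.522) and Adamts15 for Avp (4.69). For 7 of the 8 genes another gene thus matched the mean to within 1 point in every mouse, and for Avp none did.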

How the data were processed

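The 6 dentate gyrus libraries were made with an RRBS kit from genomic DNA, and each is 1 mouse. The authors trimmed reads with Trim Galore 0.4.0 and cutadapt 1.8.1, aligned them to mm10 with Bismark 0.16.1 and extracted cytosines with methylKit 1.5.2 (versions per the submitters' processing notes), keeping those with at least 10 reads and dropping the most deeply covered. The deposited values are the percent of reads methylated at a cytosine in each library, with no normalization between libraries stated. Both strands are separate sites. The table holds 890041 sites without missing values and no read numbers, so the depth of single values is unknown, no counting interval is given, and the authors' test on reads was not repeated. Of the sites, 890021 lay on a CpG of GRCm38. All columns of per-library values were used (0 unused).

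Sites were assigned to genes with GENCODE M21. Gene means, 1 kb tile means (at least 3 sites) and sites that varied were tested over the whole table with limma 3.58.1 in R 4.3.3 (lmFit, eBayes with a variance trend, Benjamini-Hochberg adjustment over all features), after testing the procedure on simulated data. A site or tile was called at an adjusted p-value under 0.05 and a difference over 25 percentage points, a gene at the adjusted p-value alone. This differs from the authors' test of reads and takes the spread between mice as the only error. Single means were compared by two-sided exact permutation tests (Python 3.11.15). The members and all lists were chosen with earlier results of these data known, and p-values were not adjusted over them.

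Named were all 8 genes, the site with the lowest p-value in each, every site over 25 percentage points with groups that did not overlap, the tile with each gene start, tiles whose groups did not overlap, the nearest gene in level for each, and of the wider list the genes without overlap and the largest difference in each direction. Alternatives changed strands, filters, scale, variance model, normalization, tile size, gene interval, limits and each library left out. Sequences are from RefSeq and GRCm38.p6. The promoters of Nr3c1 and Crh and the sequence around Nr3c1 are not shown here.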

Additional observations from a re-analysis of the deposited data

How the results depend on the processing

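No cytosine, tile or gene of the 8 genes and no gene of the wider list was called under the alternatives run (13 for cytosines, 14 for tiles, 13 for genes and 11 for the wider list). The smallest adjusted p-values over these were between 0.333 and 1 for cytosines, 0.916 and 1 for tiles, 0.957 and 1 for genes, and 0.0959 and 1 for the wider list. Centring each library called 70 tiles and 27 genes in the whole table, none of them among the 8 genes. Of the gene means, Avp kept its direction under all alternatives, and so did Fkbp5, Crhr1 and Crhr2 under all but the median over cytosines, which was 0% in every library for each gene but Avp. Their sizes moved: Fkbp5 was -0.208 under quantile normalization, -0.333 without STD replicate 2, -0.349 without ENR replicate 3 and -0.942 without ENR replicate 1. Crhr1 was 1.18 with strands averaged, 1.08 under quantile normalization, 0.348 without STD replicate 2 and 0.988 without ENR replicate 3. Crhr2 was 0.575 without ENR replicate 3 and 1.39 without ENR replicate 1, and Crh -0.307 under quantile normalization, -0.331 without STD replicate 3 and -0.872 without STD replicate 2. Over cytosines of 20% to 80%, the differences were 2.65 at Nr3c1, -6.65 at Nr3c2, -6.31 at Fkbp5, 3.73 at Crhr1 and 9.46 at Pomc. Over tile means they were 0.329 at Nr3c1, -1.68 at Nr3c2, -2.04 at Fkbp5 and 1.81 at Crhr1. Under quantile normalization they were 0.413 at Nr3c1, -0.345 at Nr3c2 and 0.654 at Pomc. Within 1 kb of a transcript start they were -0.0373 at Nr3c2, 0.272 at Crhr1 and -2.47 at Crh, and in the gene body 0.774 at Pomc. Crh turned to 0.526 as a mean of tile means, and Pomc to -1.64 within 1 kb of a transcript start, -0.0580 with strands averaged and -0.806 as a mean of tile means. Leaving out single libraries gave -0.452 to 0.936 for Nr3c1, -1.36 to 0.155 for Nr3c2 and -0.422 to 0.635 for Pomc. The cause was not tested.

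Among positions within genes, leaving out a library turned the direction of the Avp intron (-0.542 to 8.46), Crh exon (-0.357 to 0.0710), Crhr1 exon (-10.6 to 6.77), Crhr1 promoter (-0.0384 to 0.545), Fkbp5 intron (-7.15 to 1.87), Nr3c1 promoter (-0.452 to 0.936), Nr3c2 exon (-6.24 to 1.67), Nr3c2 intron (-6.91 to 0.757) and Nr3c2 promoter (-0.409 to 0.330). Without a change of direction, the Avp exon ranged from 0.821 to 4.49, the Crh promoter from -3.96 to -0.388, and the Fkbp5 promoter from -0.756 to -0.171, and the Crhr1 intron was 0.686 without ENR replicate 1. Cytosines over the limit numbered 10 at 25 points, 1 at 40 points and 12 to 16 without single libraries, the 16 without STD replicate 3. Quantile normalization raised the cytosines without overlap from 22 to 61 (10.2%), and the share over all sites from 3.99% to 7.34%. Of the 10 other cytosines without overlap, recomputed after seeing the data, 28510688 of Fkbp5 turned to -6.07 with strands averaged, where 28510722 was -6.73. The cytosines with the lowest p-values or over the limit without overlap, and the named tiles, kept their direction in all alternatives run, but not always their size. With strands averaged, the difference was 6.67 at 104171463 and -13.8 at 104151204 of Crhr1, -2.33 at 19694109 of Crh and 17.0 at 3955123 of Pomc. Without ENR replicate 2 it was 15.1 at 104171463 and 21.8 at 104171481 of Crhr1. Without STD replicate 3 it was -21.4 at 104151204 and -13.9 at 28485373 of Fkbp5, where it was -6.08 without STD replicate 2. It was 6.25 at 39490140 of Nr3c1 without ENR replicate 1, and at 55117480 of Crhr2 5.36 without ENR replicate 2 and 14.9 without ENR replicate 3. For the wider list, also recomputed without single libraries after seeing the data, medians ran from -1.15 to 0.188 for glucocorticoid response genes, -3.70 to -0.417 for metabolism, -0.390 to -0.0183 for chaperones, -0.422 to 0.459 for coregulators, -0.520 to 0.251 for the vasopressin and oxytocin system, -0.762 to 1.96 for the CRH family and 0.216 to 2.08 for POMC processing. In the tiles with gene starts, leaving out single libraries gave -1.31 to -0.0782 for Nr3c2, 0.124 to 1.51 for Fkbp5, 0.192 to 1.01 for Crhr1 and -10.5 to -1.96 for Pomc.

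Pairing by replicate number was unclear. Deviations of same-numbered libraries correlated at r = 0.0552, 0.0319 and 0.125, and STD replicates 1 and 3 correlated best with their own number but STD replicate 2 with ENR replicate 1 (0.0410). With the replicate number as a block, limma again gave 0 calls, and the differences within pairs gave exact sign-flip permutation p-values from 0.25, the smallest possible, at Crh to 1 at Nr3c1 and Nr3c2. With no read numbers in the table, the logistic regression was not run. Means of promoter cytosines gave no value for Avp, nor did cytosines between 20% and 80% for Crh, Crhr2 and Avp.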

Other observations

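The annotated starts of Nr3c1, Crh, Crhr2 and Avp held too few cytosines for a tile. Of the marker promoters, those of Sim1 and Otp, transcription factor genes of the hypothalamic neurons that make CRH and vasopressin, were between 1.53% and 3.29% (86 sites) and between 1.07% and 2.54% (69 sites) in single mice. That of Tbx19, the transcription factor gene of pituitary corticotrophs, was between 26.7% and 40.4% (5 sites). Mbp, an oligodendrocyte gene, had promoter values between 7.61% and 8.78% (64 sites), and Olig2 between 1.15% and 3.75% (15 sites). The promoters of Mog, Cx3cr1, Csf1r and Pou1f1 held 0 sites.

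The 3 cytosines of Avpr1b are the largest gene difference of the wider list and rest on 22 bp of sequence. Single cytosines there were at 29.4%, 33.3% and 40% in STD against 15.8%, 0% and 15.4% in ENR, and at 17.6%, 33.3% and 40% against 15.8%, 0% and 0%. At the remaining cytosine the groups overlapped, as ENR replicate 2 lay above STD replicate 1 (17.6%). STD replicate 2 was at 33.3% and STD replicate 3 at 40% at each of the 3 cytosines.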
